A study of Mus musculus with 4 samples.

Results

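The angiopoietin and Tie genes were read in single-nucleus RNA-seq of mouse brain. They are Angpt1 and Angpt2, which encode secreted ligands, Tek (the receptor Tie2), Tie1 (its co-receptor) and Ptprb (the phosphatase VE-PTP). These 5 genes are a fixed list, with no threshold on their values, out of the 31053 genes of the count matrices. Each of the 4 libraries came from 1 combination of region label (cortex or striatum) and virus, so that there was 1 library per group. All mice were male C57BL/6J, received an AAV9 vector into the cisterna magna at 4 weeks of age and were taken at 8 weeks. AAV-VEGF-C carried mouse VEGF-C. AAV-CTRL carried a soluble part of VEGF receptor 3 that does not bind VEGF-C, fused to an immunoglobulin tail, so every group, the controls included, received a virus encoding a secreted protein. Tissue of 5 mice was pooled in each library, and the mice of 1 AAV group gave both region labels. No library had a replicate, so no test was made and every interval below is a 95% interval for counting error only.

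The angiopoietins act on the endothelium, the lining of blood and lymphatic vessels. Angpt1, released by cells around the vessel, activates Tek and is known for keeping vessels quiescent and tight. Angpt2, stored and released by endothelial cells in remodelling vessels, can oppose or mimic Angpt1 depending on context. Tie1 binds no angiopoietin with high affinity but forms complexes with Tek, and Ptprb removes phosphate from Tek. The pathway runs beside the VEGF receptors, and VEGF-C itself acts mainly through the receptor Flt4 on lymphatic endothelium.

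On GRCm38 (GENCODE M21), Angpt1 lies at chr15:42424723-42676977 on the minus strand and Angpt2 at chr8:18690263-18741562 on the minus strand. Tek is at chr4:94739289-94874976 on the plus strand, Tie1 at chr4:118471191-118490061 on the minus strand and Ptprb at chr10:116275523-116389535 on the plus strand. All 51300 bases of Angpt2 lie inside Mcph1, a gene for a chromosome condensation protein on the opposite strand. The counting's strand setting was not given in the sources used here, and introns fill most of both genes, so the UMIs (unique molecular identifiers, each 1 counted molecule) of Angpt2 are uncertain wherever Mcph1 is present. Angpt1 shares 737 bases with the antisense gene Gm17473, which had 43 to 81 UMIs per library.

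The promoter of Tek is shown because Tek was the receptor with counts in every class of nuclei, inside and outside the vessels. It is the RefSeq sequence (GRCm38.p6) of the 250 bases upstream of the start, chr4:94739039-94739288 on the plus strand, with GGAA, the core bound by ETS factors such as Erg, in capitals on either strand (TTCC where it lies on the other strand).

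Tek: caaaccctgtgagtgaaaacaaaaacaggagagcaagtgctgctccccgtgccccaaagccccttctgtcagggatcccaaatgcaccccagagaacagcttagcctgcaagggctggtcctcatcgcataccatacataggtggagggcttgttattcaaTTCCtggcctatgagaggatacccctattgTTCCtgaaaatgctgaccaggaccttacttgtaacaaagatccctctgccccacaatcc

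The Tek window held 2 matches to GGAA, and 76.8% of the 32851 promoter windows of the same length held at least 2. The window of Tie1 held 7, a number reached by 3.82% of all windows, but its letters are not printed because GENCODE places most of them inside the first exon. Neither window held TGTTTAC, the core letters of a forkhead motif, which 3.17% of windows had. The promoter table matched only Tek and Tie1 of the 5 genes.

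The deposited matrices held 78728 nuclei, of which 73118 were kept after doublets were removed, with median depths of 2132 to 2659 UMIs per library. The region labels did not match the neurons. Ppp1r1b, a marker of striatal projection neurons, had 63.1 and 75.8 CPM (counts scaled to a total of 1000000 UMIs) in the cortex-labelled libraries (AAV-CTRL, then AAV-VEGF-C) and 18.8 and 18.5 in the striatum-labelled ones, and Tcf7l2, abundant in the thalamus, had 43.6, 41.0, 303 and 339. The labels are therefore used here only as names of libraries. Between 76 and 118 cell barcodes were shared by each pair of libraries, and their profiles were about as alike as those of other pairs (median r of 0.264 to 0.30 against 0.266 to 0.315). Clusters were named from marker genes that excluded the 5 genes, which were also left out of the clustering. A name ends in "-like" because it was rebuilt here, and a difference from the study may come from that.

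Tek, Tie1 and Ptprb were endothelial genes in all libraries, and their summed levels there stayed close across the 4 groups before thinning to equal depth. The endothelial-like class held 605, 648, 897 and 656 nuclei (the cortex label under AAV-CTRL, then under AAV-VEGF-C, and likewise the striatum label, the order kept for every list of values below), and all 15 endothelial markers were counted in each library. Tek had 390 CPM, 397, 419 and 382. Tie1 had 223 CPM, 193, 221 and 195. For both receptors the intervals of the 4 libraries overlapped. Ptprb was the most counted of the genes at 1004 CPM, 990.1, 1040.4 and 944. Counts grow with gene length, so levels are not compared between genes here. Over all libraries, endothelial-like nuclei were 3.84% of nuclei and gave 17.4% of Tek UMIs, 34.1% of Tie1 UMIs and 31.9% of Ptprb UMIs. Much of the rest of Tie1 and Ptprb was in clusters that mixed endothelial markers with those of pericytes, smooth muscle, fibroblasts or red blood cells and were kept apart.

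**Figure D1:**
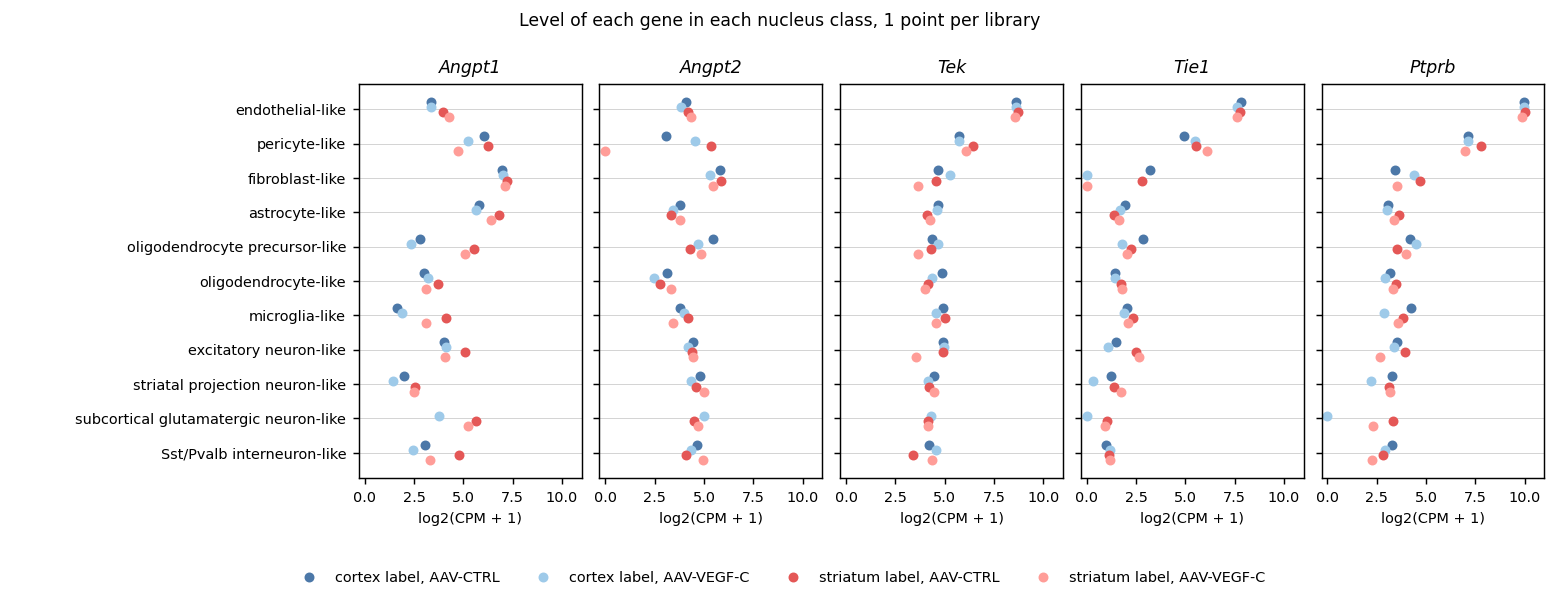
Level of each gene as log2(CPM + 1) (x axis) in 11 named classes of nuclei (y axis), 1 point per library, coloured by region label and AAV; a class is drawn in a library only with at least 20 nuclei. Tek, Tie1 and Ptprb stood far to the right in endothelial-like nuclei, with the 4 libraries close together, while Angpt1 was highest in fibroblast-like nuclei and higher in the striatum-labelled libraries in astrocyte-like nuclei.

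A UMI of Ptprb was seen in 62.8% of endothelial-like nuclei in cortex AAV-CTRL, 64.8% in cortex AAV-VEGF-C, 61.8% in striatum AAV-CTRL and 65.5% in striatum AAV-VEGF-C. The shares with Tek were 40.0%, 41.0%, 42.1% and 41.6%, and those with Tie1 26.4%, 23.3%, 25.8% and 25.6%. Oligodendrocyte-like nuclei, taken as the background class because oligodendrocytes are not vascular cells, had median depths of 1622 to 2043 UMIs against 1360 to 1648 in endothelial-like nuclei. There the shares were 0.985% to 1.88% for Ptprb, 2.93% to 4.63% for Tek and 0.246% to 0.493% for Tie1, so all 3 genes stood well clear of this background in endothelial-like nuclei. Thinned to 1000 UMIs per nucleus, which left out 30 to 180 endothelial-like nuclei per library, the Ptprb share was 58%, 56.8%, 57.2% and 47.3%. The striatum AAV-VEGF-C library, whose endothelial-like nuclei were the deepest, was then the lowest for each of the 3 genes, with 25.9% for Tek against 29.5% to 33.5% elsewhere and 14.7% for Tie1 against 16.3% to 20.1%.

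Within the endothelium, the arterial cluster differed from the capillary ones in Ptprb. The capillary clusters, one almost wholly from cortex-labelled libraries and one from striatum-labelled ones, had 961 CPM (917 to 1006) and 916 CPM (879 to 955). The arterial cluster of 70 nuclei, led by Eln, Bmx and Edn1, had 2963 CPM of Ptprb (2679 to 3269), with 2359 CPM, 3223, 3075 and 3014 by library, each above every library of the capillary clusters. Tek was 521 CPM there (406 to 658) against 393 CPM (365 to 422) and 396 CPM (371 to 421). The 5 genes were not used to form the clusters, but Ptprb was among the 10 leading genes of the arterial one, so these are descriptions. Of the mixed clusters, the one with venous endothelial markers (121 nuclei) had 1296 CPM of Ptprb and the one led by smooth muscle genes such as Acta2 and Myh11 (233 nuclei) had 1200.0 CPM.

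**Figure D2:**
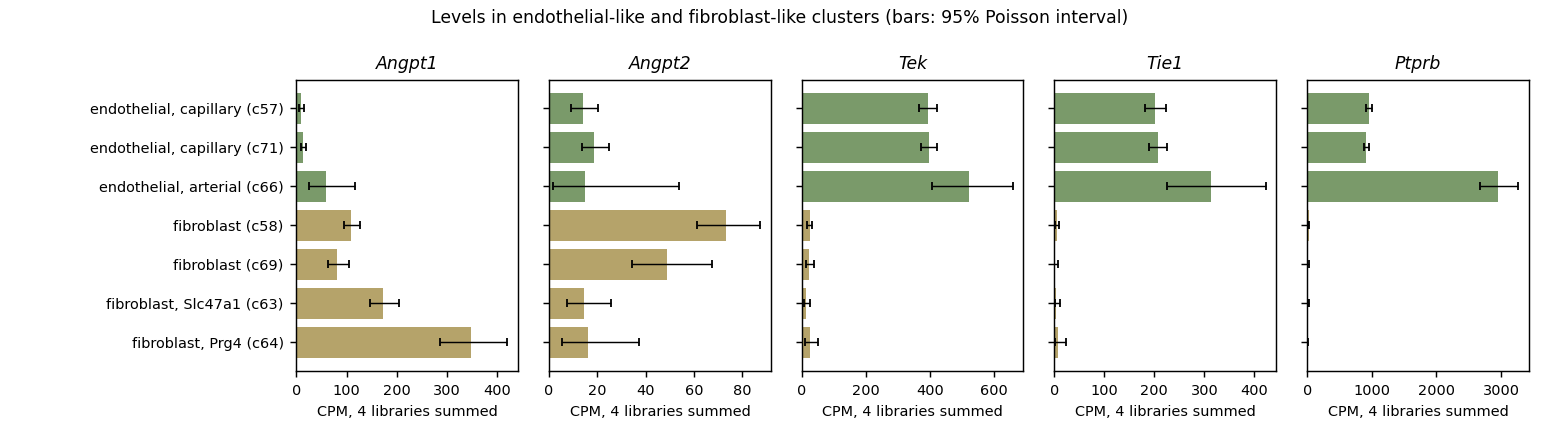
Level in CPM (x axes, each from 0 with its own scale) of the 5 genes in 3 endothelial-like clusters (green) and 4 fibroblast-like clusters (tan), summed over the 4 libraries, with 95% Poisson intervals as bars. Ptprb was highest in the arterial cluster at 2963 CPM, Angpt1 in the Prg4 fibroblast cluster at 349 CPM and Angpt2 in the largest fibroblast cluster at 73.5 CPM.

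Pericyte-like nuclei (388) had lower levels of the receptors: 65.2 CPM of Tek (45.9 to 89.9), 45.8 CPM of Tie1 (29.9 to 67.2) and 162 CPM of Ptprb (131 to 199). The summed level of the 15 endothelial markers in those nuclei was 1468 CPM, 1623, 1853 and 1910, against 13954 to 15119.9 in endothelial-like nuclei. Its part in the receptor counts was not tested.

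Outside the vessels Tek parted from Ptprb, and Tie1 did so far less. Each UMI of Ptprb came with 0.40 UMIs of Tek (0.378 to 0.422) in endothelial-like nuclei, but with 3.59 (3.31 to 3.89) in neurons of unresolved type, 3.01 in excitatory neuron-like, 2.23 in astrocyte-like and 2.08 in oligodendrocyte-like nuclei. The intervals of these ratios did not overlap that of endothelial-like nuclei. In the same classes, the Tie1 to Ptprb ratio was 0.15 to 0.244, against 0.209 (0.194 to 0.224) in endothelial-like nuclei. Tek had 28.2 CPM in unresolved neurons (31.2, 29.1, 25 and 29.5 by library) and 29.4 CPM in excitatory neuron-like nuclei. The part of free RNA in these counts, as in those of the oligodendrocyte-like background class, was not tested. These neuronal levels were low beside the 398 CPM of the endothelium. Unresolved neurons gave 26.2% of all Tek UMIs, more than endothelial-like nuclei, but were 17.3% to 39.8% of the nuclei of a library. Their 28.2 CPM was below the 39.1 to 42.0 CPM of Tek over all kept nuclei of each library. Differentiating oligodendrocyte-like nuclei (367) differed from these classes, with 48.5 CPM of Ptprb (35.2, 70.5, 44.9 and 45.5 by library) and 1 UMI of Tie1. Before doublets were removed, their cluster of 498 nuclei, 26.3% of them called doublets, had 35 UMIs of Tek and 73 of Ptprb.

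Angpt1 was highest in fibroblast-like nuclei among the named classes. These cells of the meninges and vessel walls numbered 309, 248, 714 and 317 and had 125 CPM of Angpt1 in cortex AAV-CTRL, 128 in cortex AAV-VEGF-C, 148 in striatum AAV-CTRL and 139.7 in striatum AAV-VEGF-C, and the 4 intervals overlapped. A UMI of Angpt1 was seen in 17.3% to 21.5% of them and in 1.14% to 1.93% of oligodendrocyte-like nuclei. The fibroblast-like clusters differed: the Prg4 and Dpp4 cluster (82 nuclei) had 349 CPM (286 to 421), the Slc47a1 cluster (321 nuclei) 173 CPM (146 to 204), the largest cluster (866 nuclei, led by Slc6a13 and Bmp6) 109 CPM (94.0 to 126) and the Ptgds cluster (319 nuclei) 81.3 CPM (62 to 105). The smooth muscle mixture had 148 CPM of Angpt1 (141, 116, 146 and 179 by library) and pericyte-like nuclei 52.9 CPM (35.7 to 75.5). Endothelial-like nuclei, which carry the receptor, had 13.4 CPM of Angpt1.

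Larger shares of the Angpt1 UMIs came from astrocytes and neurons. Astrocyte-like nuclei gave 20.9% of them and unresolved neurons 30.2%, against 7.61% from fibroblast-like nuclei. Of the nuclei of a library, these classes were 11.7% to 13.7%, 17.3% to 39.8% and 1.31% to 3.33%. Astrocyte-like nuclei had 54.5 CPM of Angpt1 in cortex AAV-CTRL, 48.6 in cortex AAV-VEGF-C, 110.2 in striatum AAV-CTRL and 82.9 in striatum AAV-VEGF-C, and the cortex-labelled and striatum-labelled libraries did not overlap. The 12 fibroblast markers summed to 144 CPM, 129, 198 and 122 in those nuclei, against 4291 to 5615 in fibroblast-like nuclei. Among neurons, subcortical glutamatergic neuron-like nuclei of the striatum-labelled libraries had 49.5 CPM under AAV-CTRL and 36.2 under AAV-VEGF-C. A small cluster among the unresolved neurons was led by Avp, Oxt and Sim1, genes of the hypothalamic neurosecretory neurons. It had 386 CPM of Angpt1 (304 to 483) over 40 nuclei and was picked out after its value was seen. Of those nuclei, 25 were in striatum AAV-CTRL (406 CPM), 14 in striatum AAV-VEGF-C (388 CPM) and 1 in cortex AAV-VEGF-C.

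**Figure D3:**
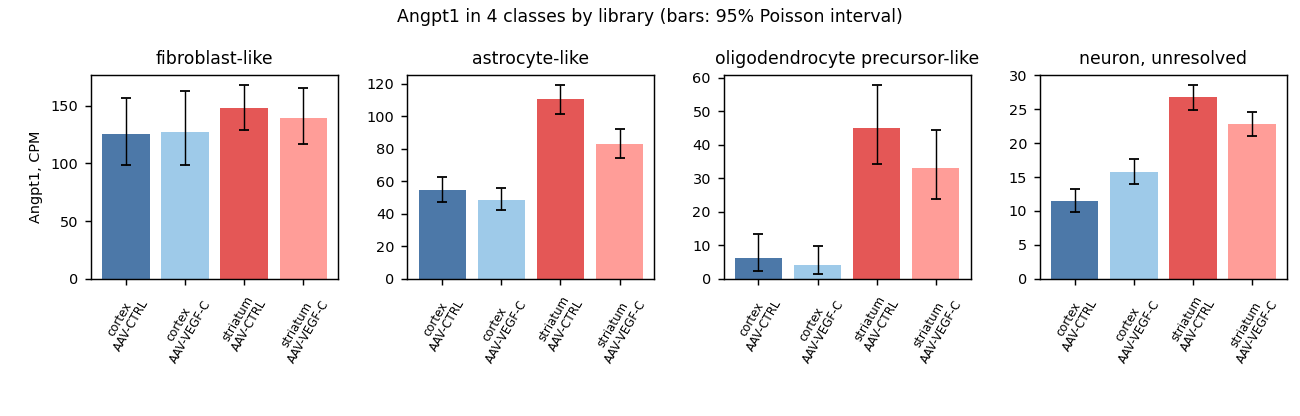
Angpt1 level in CPM (y axes from 0) in the 4 libraries for fibroblast-like, astrocyte-like and oligodendrocyte precursor-like nuclei and unresolved neurons, with 95% Poisson intervals as bars. The fibroblast bars overlapped at 125 to 148 CPM, while in the other 3 classes both striatum-labelled bars stood above both cortex-labelled ones. The unresolved neurons pool several clusters.

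Between region labels, Angpt1 had the largest ratios of the 5 genes over all kept nuclei. A gene is called higher or lower here when its log2 ratio passes 0.58 (about 1.5-fold) and it has at least 25 UMIs over both libraries. Over all kept nuclei, the striatum-labelled library had a log2 ratio of 1.18 (1.07 to 1.29) for Angpt1 under AAV-CTRL and 0.82 (0.71 to 0.92) under AAV-VEGF-C, from 16.9 to 38.3 CPM and from 16.8 to 29.5 CPM. It was the only 1 of the 5 called in either comparison, Angpt2 under AAV-VEGF-C being just short at 0.57, where 30.2% and 30.7% of all genes were called, so 1 of 5 is no more than the background. Over all nuclei, fewer cells of a type and less RNA per cell cannot be told apart. With size factors from the median of ratios, all ratios of these pairs shifted by -0.18 and -0.20, Angpt1 kept its call at 1.00 and 0.62, and the ratios of Ptprb changed sign, as did that of Tek under AAV-VEGF-C and those of Angpt2 and Tie1 under AAV-CTRL.

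Within classes the contrast of Angpt1 was sharper for some, and the other members passed the fold too. Under AAV-CTRL, Angpt1 was called higher in 9 and lower in 1 of 13 classes with at least 25 UMIs, and Angpt2 in 4 and 2 of 14. Tek was lower in 4 of 16, Ptprb higher in 4 and lower in 1 of 17, and Tie1 higher in 2 of 7. Under AAV-VEGF-C, Angpt1 was higher in 7 of 12 and Angpt2 in 6 of 13. Tek was lower in 3 of 15, Ptprb higher in 1 and lower in 3 of 15, and Tie1 higher in 2 and lower in 1 of 7. The share of all genes called was read only in endothelial-like, astrocyte-like and oligodendrocyte precursor-like nuclei, at 19.9% to 23.2%. For the other classes it was not read, so these counts are not taken as particular to the 5 genes. In oligodendrocyte precursor-like nuclei, Angpt1 had 6.10 CPM, 4.14, 45.0 and 33.0, from 6, 5, 60 and 43 UMIs in 432, 539, 554 and 464 nuclei. The log2 ratios of striatum over cortex label were 2.88 (1.68 to 4.39) and 3.00 (1.66 to 4.69), where 20.1% and 19.9% of genes were called. All of these nuclei belonged to 1 cluster. For astrocyte-like nuclei these came to 1.02 (0.78 to 1.26) and 0.77 (0.52 to 1.02), against 23.2% and 23.1% of genes called. There the cluster holding most cortex-labelled nuclei had 52.5 CPM, 47.8, 137 and 77.5, and the cluster holding most striatum-labelled nuclei had 101 CPM, 77.6, 106 and 83.4. Fibroblast-like nuclei had 0.24 (-0.14 to 0.63) and 0.13 (-0.31 to 0.58), neither past the fold. In endothelial-like nuclei Tek, Tie1 and Ptprb lay between -0.07 and 0.11 in both pairs, where 21.6% and 23.1% of genes were called. Angpt1 passed the fold there at 0.64 (-0.56 to 1.96) and 1.01 (-0.16 to 2.32), on 20 and 9 UMIs and on 22 and 9, with intervals that span 0.

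Between AAV-VEGF-C and AAV-CTRL, none of the 5 genes was called over all kept nuclei, in either region label, where 4.62% of genes were called in the cortex label and 6.89% in the striatum label. In the cortex-labelled pair, Tie1 had 11.3 CPM under AAV-CTRL and 9.03 under AAV-VEGF-C (log2 ratio -0.32, -0.48 to -0.16), Ptprb 56.3 and 47.7 CPM (-0.24, -0.31 to -0.17), and Tek 42.0 and 39.1 CPM (-0.10, -0.18 to -0.02). Endothelial-like nuclei were 3.73% of the first library and 3.42% of the second, and their part in these ratios was not tested. In the striatum-labelled pair Tek was at 39.3 CPM in both, Tie1 at -0.08 (-0.23 to 0.07) and Ptprb at -0.16 (-0.22 to -0.09). Angpt1 had a ratio of -0.01 (-0.13 to 0.11) in the cortex label and -0.37 (-0.46 to -0.29) in the striatum label.

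Inside endothelial-like nuclei, where the receptors are made, none was called: 0 of 4 members with 25 UMIs in the cortex label, where 10.9% of genes were called, and 0 of 5 in the striatum label, where 10.4% were. In the cortex label, Tek had a log2 ratio of 0.03 (-0.18 to 0.24), Tie1 -0.21 (-0.50 to 0.08) and Ptprb -0.02 (-0.15 to 0.11). In the striatum label, the values were -0.14 (-0.32 to 0.04), -0.18 (-0.44 to 0.07) and -0.14 (-0.25 to -0.03). None of these intervals reached the fold of 0.58 in either direction, while the spread between mice is unknown. A gate on single nuclei asked for at least 3 endothelial markers and at most 2 markers of each other class checked. It moved Ptprb to 0.14 in the cortex label and -0.55 in the striatum label, and Tek to -0.34 in the latter, still short of the fold.

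**Figure D4:**
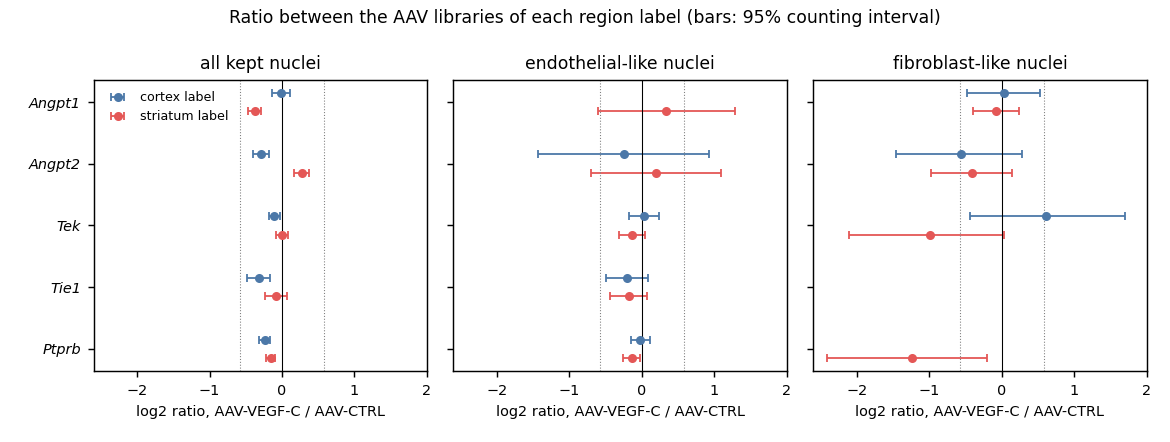
Log2 ratio of AAV-VEGF-C over AAV-CTRL (x axis) for the 5 genes (y axis) in all kept nuclei, endothelial-like and fibroblast-like nuclei, cortex label in blue and striatum label in red, with 95% counting intervals as bars and the fold of 0.58 as dotted lines; genes under 25 UMIs are not drawn. In the first 2 panels every point lay within the dotted lines, and in fibroblast-like nuclei 3 points of Tek and Ptprb lay outside, each from fewer than 40 UMIs per library.

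In fibroblast-like nuclei, Angpt1 was not called, with 0.03 (-0.48 to 0.53) in the cortex label and -0.08 (-0.40 to 0.24) in the striatum label. Among the nuclei with at least 3 fibroblast markers and at most 2 of each other class checked, those ratios were -0.69 and -1.06, both past the fold, on 24 and 46 UMIs. Angpt2 had -0.57 (-1.46 to 0.29) and -0.41 (-0.98 to 0.15). Tek was called higher in the cortex label at 0.62 (-0.44 to 1.70), 1 member against 14.2% of all genes. Tek and Ptprb were called lower in the striatum label at -0.98 (-2.11 to 0.03) and -1.24 (-2.42 to -0.21), 2 members against 13.2% of genes. Both are endothelial genes, and the summed endothelial markers in fibroblast-like nuclei were 808 CPM, 654, 972 and 783, lower under AAV-VEGF-C in both labels; their part was not tested. In astrocyte-like nuclei Angpt1 had a ratio of -0.16 (-0.45 to 0.12) in the cortex label and -0.41 (-0.60 to -0.22) in the striatum label, and in subcortical glutamatergic neuron-like nuclei of the striatum label -0.45 (-0.67 to -0.24). Ptprb was below 0 in 11 of 14 classes with at least 25 UMIs in the cortex label and in 11 of 15 in the striatum label. Its ratios ran from -1.25 to 1.00 over the former and from -2.04 to 0.47 over the latter.

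Angpt2 had its highest level among the named classes in fibroblast-like nuclei, at 56 CPM, 37.9, 56.3 and 42.4, and not in the endothelium, where it had 15.8 CPM, 13.3, 16.9 and 19.4. Both AAV-VEGF-C libraries were below both AAV-CTRL libraries in fibroblast-like nuclei, with overlapping intervals. The fibroblast clusters ranked differently from Angpt1: the largest cluster had 73.5 CPM of Angpt2 (61.2 to 87.5) and the Ptgds cluster 48.8 CPM, against 14.6 CPM in the Slc47a1 cluster and 16 CPM in the Prg4 cluster. The venous mixture had 78.3 CPM (35.2, 58.9, 58.9 and 122 by library) and the dopaminergic neuron-like nuclei 42.0 CPM on 23 UMIs. An unnamed cluster led by Col1a1 and genes of the nasal lining (125 nuclei) had 84.9 CPM on 23 UMIs. Of its nuclei, 111 came from striatum AAV-CTRL, against 4 and 7 from the cortex-labelled libraries and 3 from striatum AAV-VEGF-C.

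Because Mcph1 spans the whole of Angpt2, their counts were set side by side. Angpt2 had 0.327 to 0.415 UMIs per UMI of Mcph1 in the microglia, astrocyte, oligodendrocyte, choroid plexus and most neuron classes, 0.506 in oligodendrocyte precursor-like nuclei and 0.685 (0.503 to 0.93) in endothelial-like nuclei. Fibroblast-like nuclei had a ratio of 1.2 (0.961 to 1.5), and the venous mixture one of 2.24. Differentiating oligodendrocyte-like nuclei had 0.478 and, on 23 UMIs of Angpt2, dopaminergic neuron-like nuclei 0.622. The 2 genes lie on opposite strands, and the strand setting of the counting was not given. Whether reads of 1 gene were counted for the other was not tested.

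**Figure D5:**
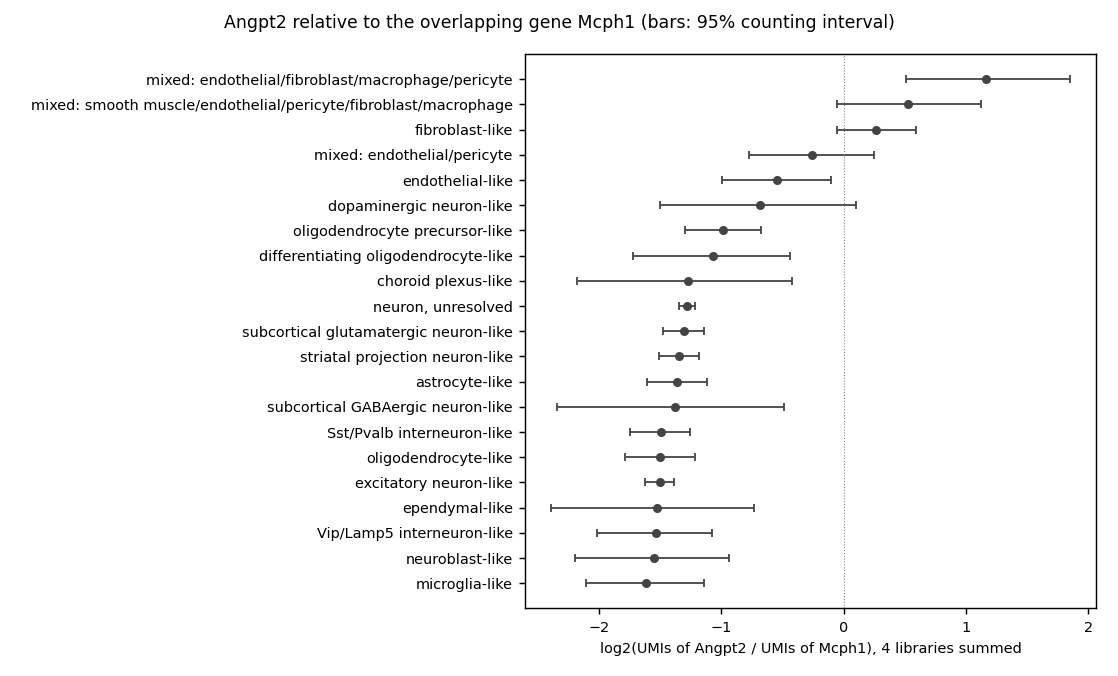
Log2 of the ratio of Angpt2 UMIs to Mcph1 UMIs (x axis) in each class with at least 50 UMIs of both together (y axis), summed over the 4 libraries, with 95% counting intervals as bars and the dotted line at equal counts. Most neuron classes, microglia-like, astrocyte-like and oligodendrocyte-like nuclei lay between 0.327 and 0.415 (linear ratio), and the venous mixture at 2.24 and fibroblast-like nuclei at 1.2 stood to the right.

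Between the AAV libraries, Angpt2 went opposite ways in the 2 region labels. Over all kept nuclei it had 21.7 CPM under AAV-CTRL and 17.8 under AAV-VEGF-C in the cortex label (log2 ratio -0.29, -0.40 to -0.18), and 21.8 and 26.4 CPM in the striatum label (0.27, 0.17 to 0.38). Neither passed the fold. The ratio was below 0 in 10 of 11 classes with at least 25 UMIs in the cortex label and above 0 in 10 of 13 in the striatum label. Mcph1 had ratios of -0.02 and 0.05 over all nuclei, so the UMIs of Angpt2 per UMI of Mcph1 were 0.420, 0.348, 0.421 and 0.492. After thinning to 1000 UMIs per nucleus, the striatum ratio of Angpt2 was 0.10. In oligodendrocyte precursor-like nuclei the cortex-labelled pair gave 42.7 and 24.8 CPM (-0.78, -1.51 to -0.07) on 42 and 30 UMIs, and the striatum-labelled pair 18.8 and 27.6 CPM (0.56, -0.22 to 1.36).

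The genes most like each member were sought over 119 sums of a class in a library (31 classes), by Pearson's r of log2(CPM + 1) among 13514 genes. The sums share libraries and depth, so r is a description. Tek was most like Ly6c1 (0.81), Cavin2, Nostrin, Erg and Flt1, and Tie1 like Ly6c1 (0.90), Grrp1, She, Erg and Esam. Ptprb was most like Ly6c1 (0.87), Tie1 (0.86), Erg, Ly6a and Foxq1. These are mostly endothelial genes, among them the ETS factor Erg and the VEGF receptor Flt1. Ly6c1, Erg and Flt1 were also markers that named the endothelial-like class, so their place in these lists is partly built in. For Angpt1 the list was Fzd2 (0.71), a Wnt receptor, Gm29683, Cped1, Col23a1 and Nr2f2, and r with Tek was 0.21. For Angpt2 it was Fbxl12 (0.64), Zfp799, Tmem55a, Zkscan2 and Atl3.

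The wider Tie pathway was read as a list of 45 genes: integrins and other extracellular partners, junction proteins, adaptors and kinases, and transcription factors with their targets. In endothelial-like nuclei of the cortex label, 37 of them had 25 UMIs, and 0 were called higher and 2 lower. These were Itga5, a fibronectin receptor subunit, at -0.97 (-2.17 to 0.14), and Tal1, a transcription factor, at -0.67 (-1.51 to 0.15). Ctnnd1, which holds VE-cadherin at junctions, was next at -0.49 (-0.94 to -0.05), then the sheddase Adam17 at -0.46 (-1.01 to 0.09). The list's share called was below the 10.9% of all genes. In the striatum label, 38 had 25 UMIs and 0 were called, where 10.4% of all genes were. Among the largest ratios were Itgav at -0.48 (-1.07 to 0.10), the phosphatase Ptpn11 at 0.41 (0.09 to 0.72) and the adaptor Shc1 at -0.31 (-1.12 to 0.49). The list's median was -0.06 and -0.08, beside -0.01 and -0.03 over all genes. Over all kept nuclei, 0 of 45 were called in the cortex label, where 4.62% of all genes were, and 1 in the striatum label (2.22%, below the 6.89% of all genes). It was Svep1, an extracellular protein that binds Tie1, at -0.65 (-0.87 to -0.43), from 6.95 to 4.43 CPM.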

How the data were processed

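Per the file headers and the labels, the authors aligned the reads to mm10 with Cell Ranger (5.0.1 in the matrix header, 5.1.1 in the processing notes) and deposited filtered matrices of UMI counts per gene and nucleus, 1 per library; intron and strand settings were not given in the sources used here. The 5 genes, the classes and the lists were chosen with earlier results of these data known. Doublets called by Scrublet (4.31% to 7.95% of nuclei) and 11 clusters with at least 40% of such calls were left out. The remaining nuclei were clustered jointly in scanpy 1.11.5 (5000 variable genes, 50 components, 15 neighbours, Leiden resolution 1.2) into 79 clusters. A marker counted when 2-fold or more over other nuclei (log2 of 1) and present in 10% of the cluster. A name needed at least 3 counted markers, 35% of its list and a marker among the 10 leading genes, or 60% of its list with no leading gene of another class; clusters with 60% of the markers of several classes stayed mixed. UMIs were summed per library and class and divided by that sum's total (CPM). Intervals are exact Poisson for CPM, exact conditional binomial for ratios and Clopper-Pearson for shares; the calculation was tested on simulated data. With 1 library per group no test was made. Named were the 5 genes, genes that overlap them, the 5 most alike, the 4 pathway genes with the largest ratio per comparison in endothelial-like nuclei (1 of which is not reported here) and the 3 highest other clusters; Svep1, the region markers, the mixed, fibroblast-like and Avp clusters beyond these were chosen after their values were seen.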

Additional observations from a re-analysis of the deposited data

Results flagged for a closer look

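Several ratios of AAV-VEGF-C over AAV-CTRL had opposite signs in the 2 region labels with counting intervals clear of 0 on both sides, and in each case the difference between the labels was not tested, because each rests on 1 library per group. Angpt2 over all kept nuclei had a log2 ratio of -0.29 in the cortex label and 0.27 in the striatum label. In unresolved neurons, which were 17.3% to 39.8% of the nuclei of a library and gave 45.3% of Angpt2 UMIs, it was -0.24 and 0.39. Angpt1 in unresolved neurons went the other way, at 0.46 in the cortex label (11.4 and 15.7 CPM) and -0.23 in the striatum label (26.8 and 22.8 CPM). This class pooled several clusters that differed in Angpt1 before doublets were removed. A cluster of 65 nuclei had 0 CPM, a cluster of 209 had 3.92 CPM and a cluster of 1002 had 33.7 CPM. The Avp, Oxt and Sim1 cluster, also in this class, had 437 CPM over 43 nuclei, 27 of them in striatum AAV-CTRL and 15 in striatum AAV-VEGF-C. The largest cluster of the class then held 236 and 271 nuclei of the cortex-labelled libraries and 4219 and 3563 of the striatum-labelled ones. The part of this mix in the ratios was not tested.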

How the results depend on the processing

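Of 232 alternative values, 180 stayed within the counting error or 1.5 times of the reported one, 52 moved and 0 changed the sign of a called value; the cause was not tested except where the alternative itself sets it. No paired analysis was possible because no result comes from a test, each group having 1 library, and the labels give no replicate numbers. A gate required at least 3 class markers per nucleus and at most 2 of each other class checked. It lowered the level of Angpt1 in fibroblast-like nuclei to 97.8 CPM and those of Tek, Tie1 and Ptprb in endothelial-like nuclei to 319.8, 168 and 829.5 CPM. The AAV ratios under that gate were -0.69 and -1.06 for Angpt1 (cortex, striatum label), -0.34 for Tek (striatum) and 0.14 and -0.55 for Ptprb. Thinning to 1000 UMIs gave 122 CPM of Angpt1, 379.6 of Tek and 938 of Ptprb, and striatum-label AAV ratios of 0.26 for Angpt1 in fibroblast-like and -0.38 for Ptprb in endothelial-like nuclei; over all kept nuclei these were -0.50 for Angpt1, 0.10 for Angpt2 and -0.27 for Ptprb. The mean over nuclei gave 120.0, 371, 193 and 889.5 CPM for Angpt1, Tek, Tie1 and Ptprb, and all-nuclei AAV ratios of -0.51 for Angpt1 (striatum), -0.17 (cortex) and -0.23 (striatum) for Ptprb. Clustering each library on its own gave a cortex-label ratio of 0.13 for Ptprb in endothelial-like nuclei. Median-of-ratios size factors gave all-nuclei region ratios under AAV-CTRL and AAV-VEGF-C of 1.00 and 0.62 for Angpt1, -0.18 and 0.37 for Angpt2, -0.28 and -0.19 for Tek, -0.16 and 0.070 for Tie1, and -0.093 and -0.021 for Ptprb. The share of all genes called depends on the UMI minimum by construction. With 1 UMI it was 19.0%, 37.2% and 42.1% in the cortex label (all, endothelial-like, fibroblast-like nuclei) and 21.5%, 36% and 39.7% in the striatum label; with 100 UMIs it was 1.15%, 2.29% and 3.47%, and 2.84%, 2.77% and 4.98%. Of the Tie pathway list in endothelial-like nuclei, 2 genes were higher and 4 lower in the cortex label and 5 higher and 1 lower in the striatum label with 1 UMI, and 0 were lower in the cortex label with 100. Leaving out the nasal and unnamed clusters, an alternative chosen after seeing the data, moved none of its 20 ratios beyond the counting error. Depth limits Angpt1 and Angpt2 in endothelial-like nuclei, with 9 to 23 UMIs per library, Angpt1 in oligodendrocyte precursor-like nuclei, with 6 and 5 UMIs in the cortex-labelled libraries, and all 5 genes in pericyte-like nuclei, with at most 15 UMIs of either receptor per library.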
